A study of Mus musculus with 16 samples.

Results

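Trace amine-associated receptors (TAARs) are a small family of olfactory receptors for volatile amines, and 6 of its mouse genes, Taar2, Taar3, Taar4, Taar5, Taar6 and Taar9, are described here. They were chosen by name, as the listed TAARs with a single copy, with earlier results of these data known. Each was read by 1 probe set of the Clariom S array, which gave 6 of the 19505 genes measured. The array also measured 9 other Taar genes, which are mostly the closely related Taar7 and Taar8 copies, and 1091 odorant receptors.

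The study looked for the receptors of olfactory neurons activated by bourgeonal, a floral-smelling aldehyde. The animals were 24 C57BL/6 males and females, 7 to 12 weeks old, and all carried the S100a5-tauGFP reporter. S100a5 is a calcium-binding protein whose RNA in olfactory neurons depends on their activity, so the reporter is meant to mark active neurons. Each mouse stayed in a chamber with clean air at 3.1 L/min for 40 h, and from hour 26 it received 10 s pulses of bourgeonal or of filtered air, the vehicle, every 20 min. Olfactory mucosa was dissociated and sorted on GFP, and 50 to 100 ng of RNA was labelled for each array. The 16 libraries fall into 4 groups of 4: filtered air titled GFP-, filtered air titled GFP+, bourgeonal titled GFP- and bourgeonal titled GFP+. Each library pooled 3 mice, so the 8 pools (4 per treatment) each gave a library of either gate, and the spread below is between pools.

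In the mouse nose a sensory neuron chooses a single receptor gene from a very large repertoire, either an odorant receptor or a TAAR. TAAR neurons lie mostly in the dorsal epithelium, use the same Golf and adenylyl cyclase 3 cascade as other olfactory neurons, and project to their own cluster of dorsal glomeruli. Several members have known amine ligands: isoamylamine for Taar3, beta-phenylethylamine, a component of predator urine, for Taar4, and trimethylamine, which is abundant in male mouse urine, for Taar5. Bourgeonal is an aldehyde and not an amine. Taar1 differs from the rest of the family in that it is not used as an olfactory receptor.

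All 15 genes lie in a single cluster on mouse chromosome 10, and the stretch from Taar1 to Taar9 runs from 23920406 to 24109534 in GRCm38.p6. Taar2 is at chr10:23938572-23941583, Taar3 at chr10:23949558-23950589, Taar4 at chr10:23960494-23961537, Taar5 at chr10:23970706-23971719, Taar6 at chr10:23984609-23985646 and Taar9 at chr10:24108488-24109534. The annotated span of Taar2, whose coding sequence is interrupted by an intron, is 3012 bases, and the spans of the other 14 genes are 999 to 1109 bases. The sequences around the annotated start are shown because the members, although neighbours, differed in direction between the gates. They come from RefSeq (GRCm38.p6), which held 5 of the 6 members, all but Taar4. Each is written 5′ to 3′ on the strand of its gene and holds 100 bases before and 50 bases after the annotated start, with the ATG in capitals. A match to TAATTG on either strand is also in capitals.
Taar2, plus strand, chr10:23938472-23938621: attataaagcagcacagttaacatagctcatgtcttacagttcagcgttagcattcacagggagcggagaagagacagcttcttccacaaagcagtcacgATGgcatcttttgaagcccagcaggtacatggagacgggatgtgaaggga
Taar3, plus strand, chr10:23949458-23949607: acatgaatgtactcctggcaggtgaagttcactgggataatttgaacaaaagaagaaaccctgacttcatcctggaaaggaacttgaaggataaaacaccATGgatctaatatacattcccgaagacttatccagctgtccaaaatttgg
Taar5, plus strand, chr10:23970606-23970755: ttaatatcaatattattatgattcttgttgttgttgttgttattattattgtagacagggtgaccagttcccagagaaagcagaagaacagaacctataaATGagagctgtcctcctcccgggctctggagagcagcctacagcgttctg
Taar6, minus strand, chr10:23985597-23985746: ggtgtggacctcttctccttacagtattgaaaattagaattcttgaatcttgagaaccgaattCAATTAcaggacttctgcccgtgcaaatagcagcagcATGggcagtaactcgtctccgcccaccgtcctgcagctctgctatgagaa
Taar9, minus strand, chr10:24109485-24109634: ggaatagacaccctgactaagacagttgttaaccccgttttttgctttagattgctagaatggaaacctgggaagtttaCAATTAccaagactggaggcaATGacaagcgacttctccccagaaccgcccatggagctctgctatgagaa

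The annotated start is the ATG in all 5 windows, so the RefSeq models of these genes begin at the coding start and the true transcription start may lie further upstream. The following elements were looked for on both strands in the 250 bases before the start: TAATTG and TAATTA, which are core sequences of homeodomain factors such as Lhx2 and Emx2, and TCCC followed after any 2 bases by GGGA, a core of the Olf/Ebf site. TAATTG, written as CAATTA on the other strand, was present in Taar6 at -37 to -32 and in Taar9 at -21 to -16. It was present in 7.17% of 32851 mouse promoters and in 22.9% of the 925 odorant receptor promoters in the same table. TAATTA, found in 4.84% of all promoters and 17.9% of those of odorant receptors, and the Olf/Ebf core, found in 0.779% and 0.432%, had no match in these 5 genes. Of the members with a TAATTG match, Taar9 was higher in the libraries titled GFP- and Taar6 did not pass, as described below.

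Probes for related genes can cross-hybridise, and the coding starts give a view of how alike the members are. Among the 10 pairs of the 5 members with a window, the first 50 coding-strand bases from the ATG were identical at 11 to 32 positions, with a longest shared run of 5 to 16 bases. These are genomic bases, and those of Taar2 hold an in-frame TGA, so they are not all coding. The pairs with Taar2 therefore do not compare coding sequence alone. The longest run among these pairs was shared by Taar6 and Taar9. Both were also like Taar8b, with 26 identical positions each and longest runs of 21 bases (Taar6) and 16 bases (Taar9). Among the 10 pairs of the 5 Taar7 genes the identical positions numbered 25 to 49 and the longest run was up to 25 bases. Where the array's probes lie in each gene was not used here, so binding of related transcripts was not tested.

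All values are the deposited log2 expression values, and a gate difference is the library titled GFP- minus the library titled GFP+ of the same pool, in log2 units. For all 16 samples the title names the opposite gate from the cell type field. Groups follow the titles, and S100a5 itself read higher in 8 of 8 pools on the titled GFP- side, by 1.02 ± 0.25 (SD, n = 8 pools). The level of Omp, the marker of mature olfactory neurons, differed by 0.04 ± 0.10 (SD, n = 8 pools). The mean of 10 mature neuron genes was 17.0 to 17.3 in every library. As a guide to background, the 95th percentile of 321 vomeronasal receptor genes, which main olfactory neurons hardly express, was 4.29 to 4.97 across libraries. This guide was higher in the libraries titled GFP- (4.69 to 4.97) than in those titled GFP+ (4.29 to 4.64).

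The gates also differed in RNA of other cells. Of 8 neutrophil genes, 8 were lower in the libraries titled GFP- in each treatment, with a list mean of 4.03 to 5.28 there against 12.6 to 14.1 in those titled GFP+. S100a8, Retnlg, Camp and Ltf were at background in the libraries titled GFP- of both treatments. All 6 measured genes of macrophages and other immune cells and all 8 of microvillar cells were lower too, with list means of 4.46 to 5.54 against 9.60 to 10.9 and of 4.14 to 4.77 against 6.82 to 7.88. Sustentacular genes were lower in 4 of 7 cases with filtered air and 5 of 7 with bourgeonal (list means of 7.89 to 9.32 against 9.55 to 10.3), and immature neuron genes in 6 of 10 in both (10.6 to 10.8 against 12.1 to 12.4). The part of these cells in the gate differences of the receptors was not tested. In these sorted bulk samples, fewer cells that carry a receptor and less of its RNA per cell cannot be told apart.

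Between the gates, 5 of the 6 members differed in each treatment (limma with the pool as a block, Benjamini-Hochberg adjusted p under 0.05 over all genes). Taar3, Taar4, Taar5 and Taar9 were higher in 8 of 8 pools in the libraries titled GFP-, where S100a5 was also higher. Taar2 was lower there in 8 of 8 pools. Taar6 did not pass. Over all genes, 20.3% had the same direction in 8 of 8 pools. Of all genes, 16.2% were called in filtered air (6.23% higher and 9.95% lower) and 18.1% with bourgeonal (7.82% higher and 10.2% lower). The median gate difference of the 6 members was 1.94 in filtered air and 1.37 with bourgeonal. It was 0.09 and 0.10 over all genes and 0.24 and 0.33 over the 1091 odorant receptors. The median of the members lies midway between Taar3 and Taar5, and Taar5 was close to or below background. The members themselves were divided, from -2.93 to 2.89 in filtered air and from -2.94 to 2.86 with bourgeonal. Among the odorant receptors 388 were higher and 298 lower in filtered air, and 427 and 290 with bourgeonal, so differences of either sign were common among receptors. Over all genes, the share of calls on the higher side depended on the scaling: it was 38.5% in filtered air and 43.3% with bourgeonal as deposited, 53.7% and 55.0% after quantile normalization, 87.3% in both after centring each library on its median, and 19.3% with bourgeonal after centring on the odorant receptors. The members kept their direction and call under each of these scalings.

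**Figure D1:**
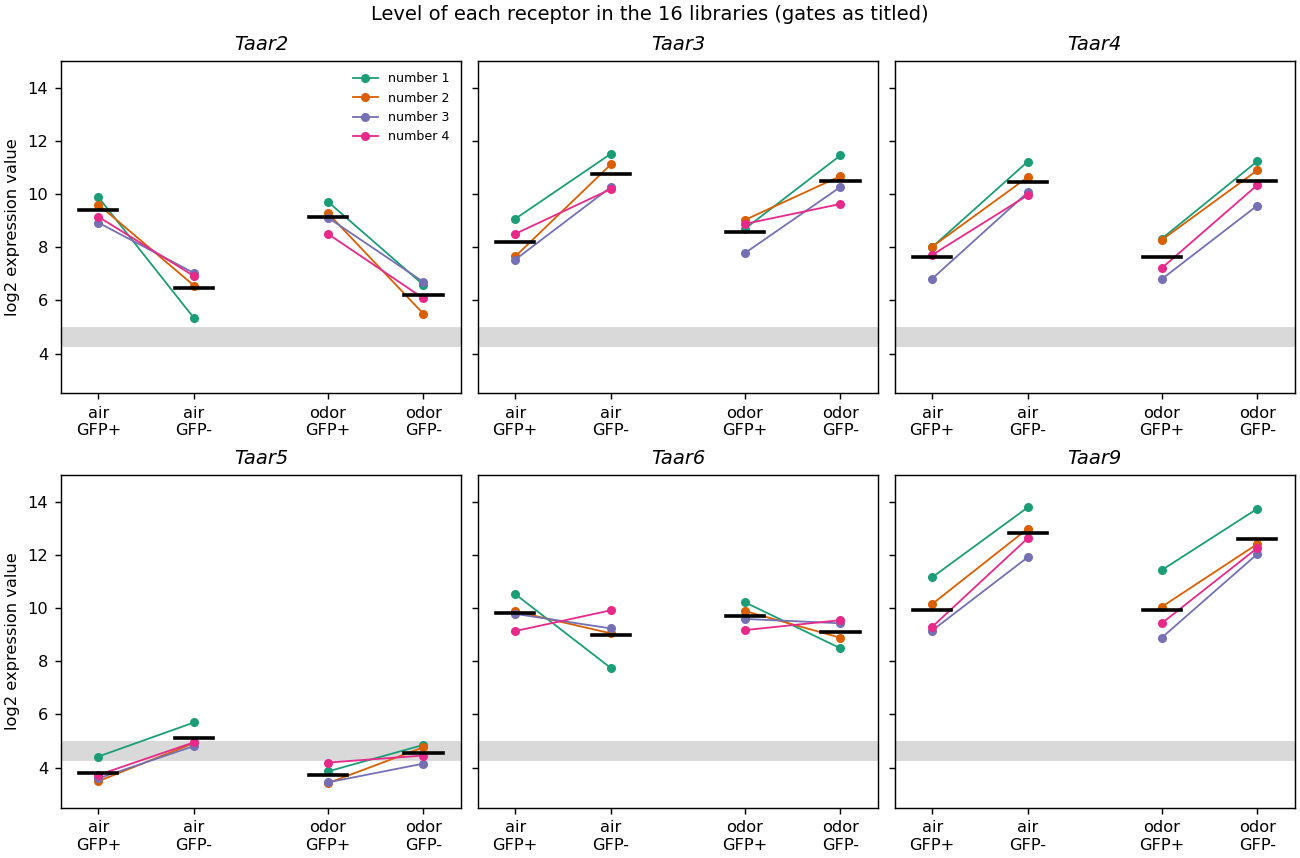
Deposited log2 expression value of each member (vertical axis) in the 16 libraries, by treatment and titled gate. Points are pools, lines join the gates of a pool, colours are replicate numbers, black bars are means of 4 pools, and the grey band spans the background guide of 4.29 to 4.97. Taar3, Taar4, Taar5 and Taar9 go up from titled GFP+ to titled GFP- in every pool, Taar2 goes down in every pool, and Taar6 crosses.

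Taar4, the receptor for beta-phenylethylamine, was among the most regular of the members. In filtered air its level was 11.22, 10.63, 10.07 and 9.96 in the libraries titled GFP- of pools 1 to 4, and 8.003, 8.02, 6.81 and 7.71 in those titled GFP+. With bourgeonal it was 11.23, 10.89, 9.57 and 10.34 against 8.32, 8.27, 6.80 and 7.21. Every library titled GFP- was above every library titled GFP+, with no overlap in either treatment. The gate difference was 2.84 ± 0.49 (SD, n = 4 pools; SE of the fit 0.18) in filtered air, or 7.14-fold (limma adjusted p = 1.3e-06). With bourgeonal it was 2.86 ± 0.22, or 7.25-fold (limma adjusted p = 1.09e-06).

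Taar3, the receptor for isoamylamine, lies next to Taar4 in the cluster and was higher on the same side with more spread. In filtered air its level was 11.51, 11.11, 10.26 and 10.19 in pools 1 to 4 titled GFP- and 9.07, 7.65, 7.53 and 8.50 titled GFP+. The bourgeonal pools gave 11.45, 10.67, 10.26 and 9.63 against 8.69, 9.02, 7.78 and 8.88. The groups did not overlap, and the closest pair of gates was pool 4 with bourgeonal, at a difference of 0.75. The mean gate difference was 2.58 ± 0.74 (SD, n = 4 pools) in filtered air, or 5.99-fold (limma adjusted p = 0.000296), and 1.92 ± 0.91 with bourgeonal, or 3.77-fold (limma adjusted p = 0.00221). The single-pool differences ran from 1.68 to 3.46 in filtered air and from 0.75 to 2.77 with bourgeonal.

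Taar9, at the far end of the cluster, is a receptor that takes a range of amines. In filtered air its level was 13.79, 12.99, 11.91 and 12.63 in pools 1 to 4 titled GFP- and 11.16, 10.15, 9.16 and 9.29 titled GFP+. In the bourgeonal pools these were 13.74, 12.41, 12.03 and 12.26 against 11.43, 10.05, 8.88 and 9.43. The groups did not overlap in either treatment, and replicate 1 was the highest of its group in all 4 groups. The gate difference was 2.89 ± 0.31 (SD, n = 4 pools), or 7.42-fold, in filtered air (limma adjusted p = 8.82e-07) and 2.66 ± 0.40, or 6.34-fold, with bourgeonal (limma adjusted p = 1.45e-06). Over both treatments, the levels of Taar9 spanned 11.91 to 13.79 (titled GFP-) and 8.88 to 11.43 (titled GFP+), while its gate difference stayed between 2.31 and 3.34 in all 8 pools.

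Taar5, the receptor for trimethylamine, was close to or below background in every library. In filtered air its level was 5.70, 4.92, 4.81 and 4.95 in pools 1 to 4 titled GFP- and 4.42, 3.49, 3.60 and 3.73 titled GFP+. With bourgeonal it was 4.86, 4.77, 4.15 and 4.46 against 3.86, 3.42, 3.45 and 4.19. It was above the background guide of its own library in 2 of 4 libraries titled GFP- in each treatment and in 0 of 4 titled GFP+, and the gates overlapped with bourgeonal. The gate difference as measured was 1.29 ± 0.10 (SD, n = 4 pools; limma adjusted p = 0.00026) in filtered air and 0.83 ± 0.46 with bourgeonal (limma adjusted p = 0.00489). With the values titled GFP+ set to the background guide of their library, the difference was 0.60 in filtered air and 0.15 with bourgeonal. Because the libraries titled GFP+ were all below background and those titled GFP- only partly above it, no fold is given for Taar5.

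Taar6 showed the widest spread of gate differences of the 6 members, and no mean difference passed the test. In filtered air its level was 7.75, 9.05, 9.24 and 9.92 in pools 1 to 4 titled GFP- and 10.52, 9.88, 9.78 and 9.14 titled GFP+. The bourgeonal pools had 8.49, 8.89, 9.43 and 9.55 against 10.22, 9.89, 9.59 and 9.17. The gates overlapped in both treatments, with the library titled GFP- lower in pools 1, 2 and 3 and higher in pool 4 of each. The gate difference was -0.84 ± 1.47 (SD, n = 4 pools; 95% interval of the limma fit -1.92 to 0.23; adjusted p = 0.285) in filtered air and -0.63 ± 0.93 with bourgeonal (-1.71 to 0.44; adjusted p = 0.416). In pool 1 it was -2.78 and -1.73, and in pool 4 it was 0.78 and 0.37, for filtered air and bourgeonal.

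Taar2, the first of the olfactory genes in the cluster, was the only member called on the other side. In filtered air its level was 5.34, 6.56, 7.03 and 6.92 in pools 1 to 4 titled GFP- and 9.88, 9.61, 8.92 and 9.15 titled GFP+. With bourgeonal it was 6.58, 5.49, 6.69 and 6.08 against 9.71, 9.28, 9.12 and 8.50. No library titled GFP- reached any library titled GFP+, and all 16 values were above background. The gate difference was -2.93 ± 1.18 (SD, n = 4 pools), 7.62-fold lower in the libraries titled GFP- (limma adjusted p = 0.000309), and -2.94 ± 0.65 with bourgeonal, 7.70-fold lower (limma adjusted p = 0.000272). The neutrophil and other immune markers were lower on the same side in each treatment, with list medians of -8.85 and -6.18 in filtered air and -9.23 and -6.49 with bourgeonal. Their part in the result for Taar2 was not tested.

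**Figure D2:**
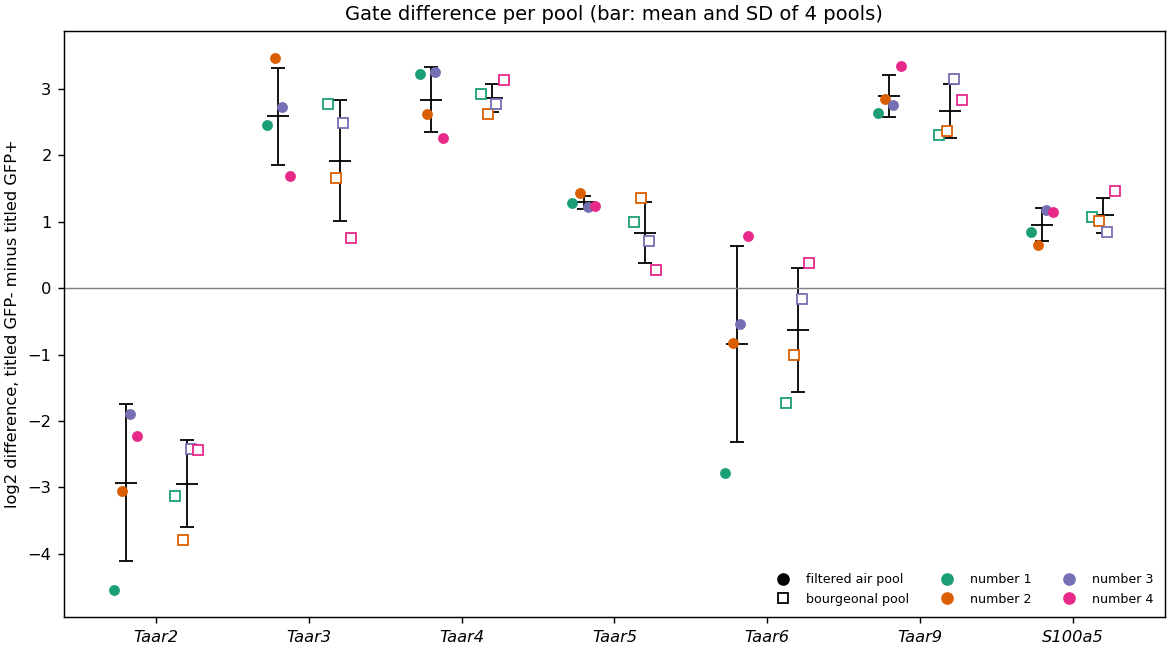
Gate difference (log2, titled GFP- minus titled GFP+, vertical axis) of each member and of S100a5 in the 8 pools. Filled circles are filtered air, open squares bourgeonal, colours replicate numbers, and the bars are the mean and SD of 4 pools. Taar4 and Taar9 stay between 2.25 and 3.34, Taar2 lies between -4.55 and -1.89, and Taar6 spreads across 0.

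Set side by side within pools, the gate differences of the members fell into an order that was partly unresolved. Taar4 and Taar9 could not be ordered, with a difference between them of 0.07 ± 0.59 (SD, n = 8 pools) and Taar4 ahead in 5 of 8. Taar3 was behind Taar4 by 0.60 on average (-0.60 ± 0.90, ahead in 1 of 8 pools) and behind Taar9 by a similar amount (-0.53 ± 0.96, ahead in 2 of 8), in both cases less than the spread between pools. Taar5 was below Taar3, Taar4 and Taar9 in 8 of 8 pools, Taar6 was below Taar5 in 7 of 8, and Taar2 was below Taar6 in 8 of 8. Values near background can compress the difference of Taar5. The background guide was also higher in the libraries titled GFP-, and its part in this difference was not tested.

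Among the 1091 odorant receptors, the members spanned most of the range of gate differences. In filtered air 94.8% of odorant receptors had a smaller gate difference than Taar9, 94.2% than Taar4, 92.3% than Taar3, 73.0% than Taar5, 27.4% than Taar6 and 12.0% than Taar2. With bourgeonal these shares were 90.3%, 91.7%, 79.9%, 60.3%, 30.2% and 12.7%. The shares for Taar5 rest on values close to or below background. The central 90% of odorant receptors reached from -4.75 to 2.91 in filtered air and from -4.71 to 3.19 with bourgeonal, so the decrease of Taar2 was exceeded by 131 and 139 odorant receptors. The SD of the 8 gate differences was 0.35 for Taar4 and 0.35 for Taar9, which is smaller than in most odorant receptors (7.52% and 7.79% had a smaller SD). That of Taar5 was 0.39, from values at or near background that are not a measure of its spread. It was 0.84 for Taar3, 0.88 for Taar2 and 1.14 for Taar6, where 80.8%, 84.9% and 95.5% of odorant receptors had a smaller SD.

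**Figure D3:**
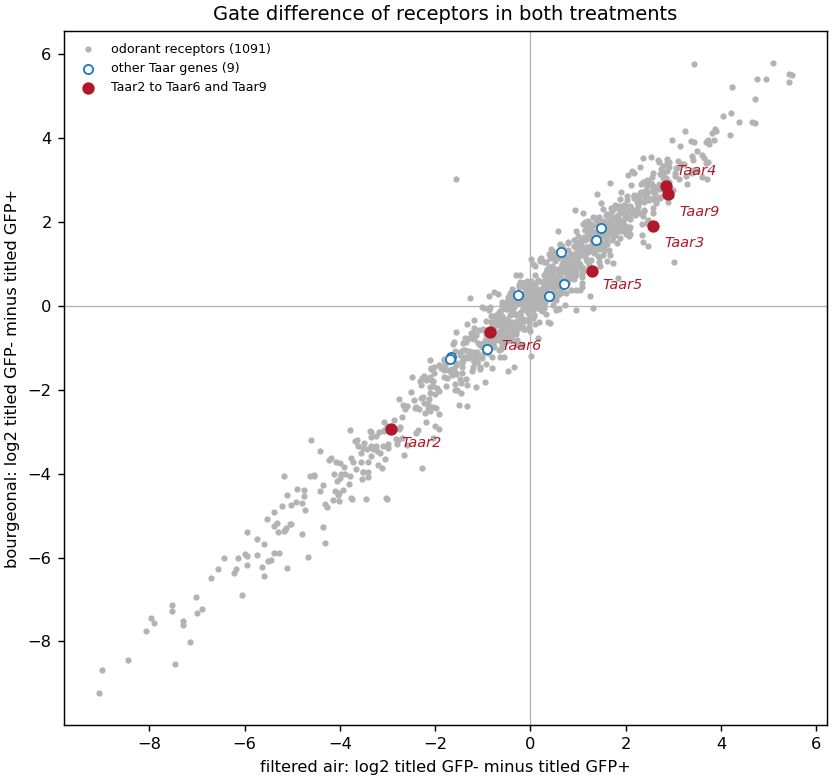
Gate difference with filtered air (horizontal axis) against that with bourgeonal (vertical axis), both in log2, for the 6 members (red), the 9 other Taar genes (open blue) and 1091 odorant receptors (grey). Taar4, Taar9 and Taar3 lie near the upper end, Taar5 lower, Taar6 just below 0 and Taar2 among the receptors at the lower end.

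The rest of the family was also divided. Of the 9 other Taar genes, 3 were higher, 3 lower and 3 not called in filtered air, and 4 were higher, 3 lower and 2 not called with bourgeonal. Taar7b and Taar7e were higher in 8 of 8 pools, by means of 1.67 and 1.48. Taar7a, Taar7d and Taar7f were lower in 8 of 8, by means of -1.44, -0.97 and -1.47. These Taar7 genes are close copies and their probes may share signal, so their separate values are uncertain. Taar1 was below background in all 4 groups. Over all genes, 9.74% were higher in 8 of 8 pools and 10.6% were lower in 8 of 8.

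Position in the cluster did not order the gate differences. Taar2, the lowest of the 15 genes, lies 7974 bases from Taar3, which had a mean of 2.25 over 8 pools. Taar9, at the other end of the cluster, had a mean of 2.78, next to that of Taar4 (2.85). Genes just outside the cluster were mixed. Slc18b1, a polyamine transporter gene, differed by 0.05 in filtered air and 0.14 with bourgeonal, and Stx7, a gene of endosomal fusion, by -0.06 and 0.18, all with limma adjusted p of 0.458 or more. Vnn1, Vnn3 and Ccn2 were below background in every group. Moxd1, a monooxygenase gene, was lower in the libraries titled GFP-, with differences of -1.44 and -1.70 (limma adjusted p = 2.37e-05 and 6.22e-06).

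**Figure D4:**
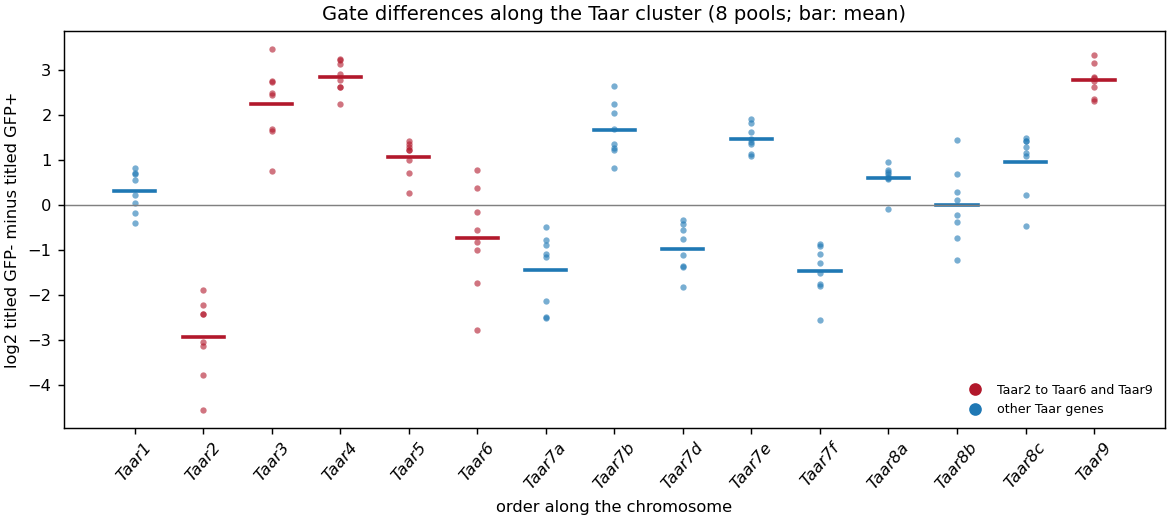
Gate difference (log2, vertical axis) of the 15 Taar genes in their order along chromosome 10. Small points are the 8 pools, bars their means, the 6 members are red and the other Taar genes blue. High and low genes are interspersed, with Taar2 at -2.94 beside Taar3 at 2.25, and Taar9 at 2.78 at the far end.

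For each member, the 3 genes with the most similar gate differences were found by the root mean square distance over the 8 pools, among genes above background in at least 1 group. For Taar4 these were the odorant receptors Olfr965, Olfr1052 and Olfr1382, at distances of 0.30, 0.34 and 0.38 log2 units. Taar9 was closest to Olfr1497 (0.37), Olfr1443 (0.37) and Olfr1246 (0.44), and Taar3 to Olfr57 (0.61), Olfr876 (0.62) and Olfr482 (0.64). The pattern of Taar6 was nearest to Olfr32 (0.55), Olfr1317 (0.59) and Olfr605 (0.61). Nearly all genes with gate differences this large were odorant receptors: in filtered air they made up 84 of the 87 genes above Taar3, 63 of the 65 above Taar4 and 57 of the 58 above Taar9. Taar5 was nearest to Slc8a1, a sodium-calcium exchanger (0.36), to Ctif (0.36) and to Olfr592 (0.36). These distances rest on values of Taar5 close to or below background. Taar2 was nearest to Scgb1c1, a secretoglobin of the olfactory mucosa (0.52), followed by Olfr1219 (0.66) and Tmem176a (0.66).

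Levels of some members were closer between libraries of the same replicate number than between other libraries of a gate, across treatments. Taar9 in the libraries titled GFP+ was 11.16 and 11.43 in number 1 (filtered air, bourgeonal), 10.15 and 10.05 in number 2, 9.16 and 8.88 in number 3, and 9.29 and 9.43 in number 4. The gap between both treatments had a median of 0.20 within a number and 1.19 between different numbers. The gate difference of Taar6 had median gaps of 0.40 and 1.19. There were 18 such comparisons (levels in either gate and gate differences of the 6 members). They are not separate, because a gate difference is taken from the levels, and the same count was not made over all genes. Over all genes, deviations from the group mean correlated at 0.0879 to 0.210 between libraries of the same number and gate. The gap within a number was the smaller in 14 of the 18. It was the larger in 4: 0.95 against 0.47 for Taar2 and 0.58 against 0.41 for Taar5 in the libraries titled GFP-, 0.31 against 0.29 for Taar5 in those titled GFP+, and 0.43 against 0.35 for the gate difference of Taar9. An F-test of the number, added after this was seen in the same data, gave a limma adjusted p of 0.0284 for Taar9 in the libraries titled GFP+, where 0.103% of all genes passed (20 of 19505). In the libraries titled GFP- the share was 0.0308% and 0 members passed. For the gate difference of Taar6 the adjusted p was 0.284, and 0% of all genes passed. The labels do not say what libraries of the same number share.

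Genes that serve all receptors were looked at beside the members, with no test between the lists. In the 13 genes of the odor transduction cascade, 4 were higher in the libraries titled GFP- in filtered air and 3 with bourgeonal, and 0 were lower, with medians of 0.28 and 0.20. Ano2, the calcium-gated chloride channel, was higher by 0.44 and 0.49 and Slc24a4, the sodium-calcium exchanger that ends the response, by 0.49 and 0.54. Gnal, the Golf alpha subunit, differed by 0.02 in both and did not pass, nor did the adenylyl cyclase Adcy3 at 0.28 and 0.33. Of 13 genes for receptor transport and receptor choice, which include Rtp1, Lhx2 and Ebf1, 0 were higher and 1 was lower in each treatment, namely the nuclear envelope gene Lbr at -1.09 and -1.03. Of 3 dorsal zone and 2 ventral zone markers, 0 passed in either treatment.

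Bourgeonal against filtered air gave no call in any member. For the change of the gate difference, odor minus vehicle, 0 of 6 members passed and 0% of all genes did, although 1109 of 19505 genes had an unadjusted limma p under 0.05. The change was 0.02 for Taar4 (95% interval -0.54 to 0.58) and -0.23 for Taar9 (-0.77 to 0.31). The intervals were wider for Taar2 (-0.01, from -1.21 to 1.18), Taar3 (-0.67, from -1.72 to 0.38) and Taar6 (0.21, from -1.31 to 1.73), and for Taar5 the change was -0.46 (-0.98 to 0.06). The limma adjusted p of the 6 members ran from 0.872 to 0.998.

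Within the libraries titled GFP-, bourgeonal minus filtered air was between -0.54 and 0.10 in the 6 members, and 0 of 6 passed, as did 0% of all genes (869 genes with an unadjusted p under 0.05). Of the members, only Taar5 had an unadjusted p under 0.05, with a difference of -0.54 (95% interval -1.04 to -0.04) and a limma adjusted p of 0.996. Both of its group means were close to background. With libraries of the same number paired, the 95% interval of Taar5 there was -0.93 to -0.15 (limma adjusted p = 0.909). Within the libraries titled GFP+, the differences were -0.23 for Taar2, 0.40 for Taar3, 0.01 for Taar4, -0.08 for Taar5, -0.11 for Taar6 and 0.01 for Taar9, and 0 of 6 members passed, with 0.0103% of all genes called (2 of 19505). With libraries titled GFP+ of the same number paired, still 0 of 6 passed and the intervals narrowed. For Taar9 the 95% interval was -0.35 to 0.36 with pairing and -1.17 to 1.18 without. The paired intervals were -0.62 to 0.16 for Taar2, -0.17 to 0.97 for Taar3, -0.38 to 0.41 for Taar4, -0.50 to 0.34 for Taar5 and -0.45 to 0.22 for Taar6. Apart from Taar5 in the libraries titled GFP-, the means of each member with and without bourgeonal differed within a gate by less than the SD of either group.

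**Figure D5:**
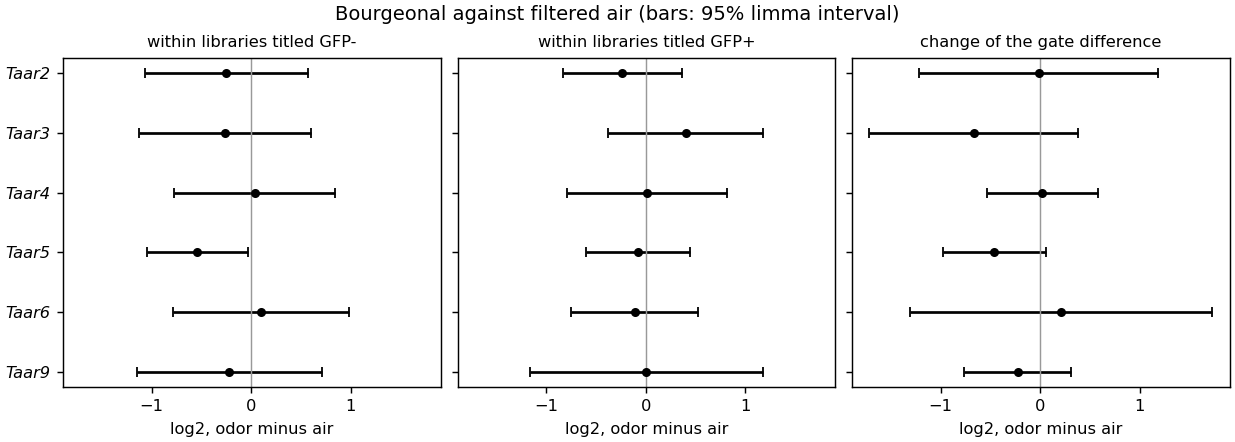
Bourgeonal minus filtered air (log2, horizontal axis) for each member within the libraries titled GFP-, within those titled GFP+, and as the change of the gate difference. Points are limma estimates and bars their 95% intervals, from fits that do not pair libraries by number. All intervals include 0 except that of Taar5 in the libraries titled GFP-, which runs from -1.04 to -0.04 and did not pass after adjustment.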

How the data were processed

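Clariom S arrays measured RNA of sorted olfactory mucosa cells. Per the submitters' processing notes, the authors used Affymetrix Expression Console, and their deposited log2 values were taken without further scaling. Its version and summarisation method are not given in the sources. That the base is 2 was inferred from the spike-in controls, which rose from bioB through bioC and bioD to cre. Their order alone does not fix the base, so the folds given here rest on that reading. Of 28846 probe sets, 94 and 6546 were controls, 19572 named 1 gene, 0 several and 2634 none. The annotation came from GEO's platform table, and 100% of its Entrez IDs matched RefSeq. The probe set with the highest mean was kept for each gene, which set 67 aside and left 19505 genes. The median over probe sets was 5.40 to 5.65 per library, and replicates of a group correlated at 0.9896 to 0.9944. Precision is limited by the number of arrays.

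All tests were made with lmFit and eBayes of limma 3.58.1 (R 4.3.3), were two-sided, and were adjusted by Benjamini-Hochberg over 19505 genes at a threshold of 0.05. The gate differences came from a fit of 16 libraries with the pool as a block, and bourgeonal was compared with filtered air within a gate on 8 libraries without a block. That the gates of a pool come from the same mice was inferred from the number of mice. Between the gates of a pool, deviations from the group mean had correlations of 0.0979 to 0.287. Between bourgeonal and filtered air libraries of the same number they correlated at 0.157 to 0.210 (titled GFP+) and 0.0879 to 0.161 (titled GFP-). The main fits do not pair these libraries, and values from paired fits are named as such. The labels do not say what the number stands for and give no batch. The fits were tested on simulated data. The members and gene lists were chosen with earlier results of these data known. The text names all 6 members, S100a5 and Omp, the 3 genes most like each member and 3 neighbours on each side of the cluster. It also names several of the other Taar genes and at most 4 genes of each remaining list. The genes named from lists do not all follow list order. Ano2, Slc24a4, Lbr and the absent neutrophil markers were chosen after their values were seen. Alternatives were other scalings, a filter on dim genes, another variance model, the mean of probe sets, other blocks and leaving out each pool or library.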

Additional observations from a re-analysis of the deposited data

Results flagged for a closer look

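The level of Taar5 in the filtered air library titled GFP- of pool 1 was 5.70, apart from the 4.81 to 4.95 of the other 3 libraries of that group. Its gap to the nearest value was a larger part of the group's range than Dixon's 95% critical value for 4 samples allows. The same check was made on 36 groups of 4 values (levels and gate differences of the members), and chance alone stands apart in about 1 in 20. The gate difference of that pool was 1.28, between those of the other filtered air pools.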

How the results depend on the processing

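Of the 6 members, 5 were called in both gate comparisons under each of the 16 alternatives, and 0 in each odor comparison. All 192 values of the gate differences kept their direction and their side of the threshold. Taar5 passed the filter on dim genes only through its mean in filtered air titled GFP-, 5.10 against a background of 4.97. That is the group where it was highest, so its kept call under this filter adds no support. With no replicate block (the pool left out of the fit) the count was still 5 of 6, and with the replicate block (libraries of the same number paired) it was still 0 of 6 in each odor comparison. No call of a member was changed by a block. Leaving out a pool moved the gate difference of Taar6 in filtered air between -1.38 and -0.20, still without a call.

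Of 288 values for the odor comparisons, 253 kept their direction and 35 reversed, none past the threshold. Leaving out a pool or library gave ranges for the change of the gate difference of -0.55 to 0.33 (Taar2), -0.17 to 0.16 (Taar4) and -0.43 to 0.75 (Taar6). In the libraries titled GFP- they were -0.58 to 0.029 (Taar3), -0.21 to 0.35 (Taar4), -0.31 to 0.41 (Taar6) and -0.59 to 0.10 (Taar9). In those titled GFP+ they were -0.26 to 0.30 (Taar4), -0.23 to 0.12 (Taar5), -0.34 to 0.12 (Taar6) and -0.49 to 0.41 (Taar9). Centring on the odorant receptor median, added after seeing the data, gave -0.12 for the change of Taar4, and 0.064 for Taar5 and 0.032 for Taar6 in the libraries titled GFP+. Centring on the library median gave -0.0013 for Taar4 and -0.0088 for Taar9 there. The cause was not tested.

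Over all genes, centring on the library median raised the calls from 3156 to 12023 in filtered air and from 3521 to 12174 with bourgeonal, and the median gate difference from 0.09 to 0.44 and from 0.10 to 0.46. The 2 calls in libraries titled GFP+ fell to 0 without dim genes and without bourgeonal replicate 2 or 3 or filtered air replicate 1, 2 or 3. Signal near background limits Taar5.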

Other observations

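Of 6 markers of guanylyl cyclase D neurons, a separate kind of olfactory neuron, 3 were lower in the libraries titled GFP- in each treatment and 0 were higher. Gucy2d and Cnga3, which define these cells, were below background in all 4 groups. In the libraries titled GFP-, 4 of the 6 markers were below background in each treatment. In those titled GFP+, only Gucy2d and Cnga3 were, and the 3 lower markers were above background there. Whether other cells gave the RNA of the 3 lower markers was not tested. All 4 endothelial markers were below background in every group.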
